A study of Mus musculus with 36 samples.

Results

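The T-box genes Tbx1, Tbx2, Tbx3, Tbx4, Tbx5, Tbx15, Tbx18 and Tbx20 are described here across kidney progenitor cells taken from mouse embryos and made from embryonic stem (ES) cells. They are a set chosen by name, without the T-box genes of the primitive streak, and all 8 were found among the 22761 genes of the deposited expression table, which lists 8 further T-box genes. Tbx2 and Tbx3 were strongly expressed in ureteric bud (UB) cells, less in stromal progenitors (SP) and least in nephron progenitors (NP) of the kidney, and Tbx18 was high in SP only among the sorted kidney cells. The ES-derived types followed the order of the E11.5 types for all 3 of these genes, but the mean of Tbx2 was 9.06 times higher in ES-derived than in E11.5 NP, and that of Tbx18 was 6.31 times lower in ES-derived than in E11.5 SP. Tbx5 and Tbx15 had their highest means in ES-derived SP, and Tbx4 was present there too, while all 3 were near or under the limit of detection in E12.5 SP apart from Tbx15 in a single library.

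T-box proteins bind DNA through a shared domain, the T-box, and set the identity of regions and cell types in the embryo. Tbx2 and Tbx3 are closely related and act mainly as repressors of transcription, and both are known from the nephric duct and from the mesenchyme around the ureter. Tbx18 is known from the mesenchyme around the ureter, whose cells become its smooth muscle, and from stromal cells of the kidney. Tbx4 and Tbx5 are known for the hindlimb and for the forelimb and heart, Tbx15 for limb and skin mesenchyme, Tbx1 for the pharyngeal region and Tbx20 for the heart.

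RNA was measured by sequencing in 36 samples, 4 in each of 9 groups. Kidney cells came from E11.5 and E12.5 embryos of CD1 mice, each sample being a pool of litter-mates' kidneys, and the ureter was removed before the cells were dissociated. NP were sorted as ITGA8-high, PDGFRA-low cells, SP as ITGA8-low, PDGFRA-high cells and UB as RET-positive, EpCAM-positive cells, so that genes used in the gates cannot serve as findings between types. The gates for NP and SP also left out cells with EpCAM or RET, and those with CD31, a surface protein of endothelium. The ES-derived nephron progenitors (iNP) and stromal progenitors (iSP) were sorted by the same gates from embryoid bodies of the E14 mESC line after activin A, CHIR99021, BMP4, retinoic acid, FGF9 and Y27632, a batch of differentiation being a sample. The ES-derived ureteric bud cells (iUB in the sample titles, eUB in the study) were EpCAM-positive, mCherry-positive cells of a reporter line, from embryoid bodies that had also received SB431542, GDNF and Matrigel. The labels and the sorting methods call this line Sox9-mCherry, whereas other parts of the study name a Sox8-mCherry line. Nothing says that replicates of a group were processed on separate days, and p-values measure the spread between these samples. The samples titled E11.5 UB carry E12.5 as their cell source and the reverse holds for E12.5 UB, so the 2 stages of UB could be exchanged. The headers of the deposited values give the stages as the titles do, and the titles are used here.

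Values are normalised CPM as deposited, the reads of a gene relative to all reads of its library, scaled between libraries by the authors. Each library held between 13.0 and 52.5 M reads on genes, and 3 reads, taken as the limit of detection, were worth between 0.0605 and 0.223 CPM; this limit covers counting error only. The summed level of 8 ureteric bud markers was 3498 to 3719 in E11.5 UB, 128 to 302 in E11.5 SP and 28.0 to 50.9 in E11.5 NP, and that of 6 stromal markers was 2670 to 4350 in E11.5 SP and 1662 to 1764 in iSP. The 7 nephron progenitor markers summed to 1370 to 1522 in E11.5 NP and to less, 488 to 904, in iNP. These lists hold genes of the gates: Ret and Epcam for ureteric bud, Pdgfra for stroma and Itga8 for nephron progenitors. The sums are thus in part set by the sort and give no independent support for identity. The iSP departed from kidney SP in the RNA of Foxd1, a defining stromal progenitor gene, at 11.4 to 19.2 against 265 to 758 in kidney SP and 15.0 to 29.5 in iUB. By immunostaining, however, the study found FOXD1 and MEIS1 protein in sorted iSP, and RNA and protein are unlike measures. Macrophage markers were near 0 except in UB of the kidney (35.98 to 69.7 for the sum of 5). The 4 erythroid markers summed to 4.27 to 127 in E11.5 SP, library 4 being the highest, and to 27.9 to 284 in E12.5 SP, against at most 6.82 in any kidney NP library, and their part in the differences of SP from NP was not tested. Some libraries stood apart. Library 1 of E12.5 UB had a stromal marker sum of 375 against 17.2 to 34.2 in the other libraries of its group, a nephron progenitor sum of 408 against 51.6 to 81.7 and a pluripotent cell sum of 11.3 against 0.0473 to 0.145. Library 1 of E12.5 NP had a ureteric bud marker sum of 84.9 against 22.004 to 29.3, and library 1 of E11.5 NP one of 50.9 against 28.0 to 38.1. Library 2 of iNP had a nephron progenitor sum of 488 against 733 to 904. Library 1 of E12.5 SP had a stromal sum of 3446 against 5306 to 5724. Library 1 of iUB was the shallowest of all, at 13.0 M reads, and the lowest of its group in Tbx2 and Tbx3. Libraries 1 and 2 of E11.5 SP were higher than the rest of their group in some mesoderm genes, chosen after their values were seen and described with Tbx4. In bulk samples a smaller number of expressing cells and less RNA per cell cannot be told apart.

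Expression spanned a wide range within the family. Tbx2 and Tbx3 reached at least 1 CPM in all 36 libraries, Tbx18 in 22, Tbx1 and Tbx5 in 9 each, Tbx4 and Tbx15 in 6 each and Tbx20 in none. A gene was tested in a comparison where at least 4 of its libraries reached 1 CPM. Tbx1, Tbx4, Tbx5 and Tbx15 therefore entered their tests only, or mainly, through the group in which they were high, and their calls carry no more than the values do. The same holds for Tbx18 in every comparison with UB or iUB and in those that include E12.5 NP, whose libraries other than library 1 were under 1 CPM. Counts of members called rest on this filter too and support nothing by themselves. Divided by the length of their exons, the highest group means were 100.4 CPM per kb for Tbx2 in iUB, 50.3 for Tbx3 in E11.5 UB and 21.9 for Tbx18 in E11.5 SP.

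In the GENCODE annotation of the mouse genome (GRCm38), 4 of the genes lie in 2 neighbouring pairs on the same strand. Tbx2 (chromosome 11, 85832551 to 85841948) is followed after 44.5 kb by Tbx4 (85886422 to 85916097). Tbx3 (chromosome 5, 119670669 to 119684724) is followed after 147.9 kb by Tbx5 (119832668 to 119885219). The neighbours did not share a pattern: over the 36 libraries Pearson's r of log2 values was 0.20 for Tbx2 with Tbx4 and 0.15 for Tbx3 with Tbx5, against 0.95 for Tbx2 with Tbx3. Tbx18 lies on the minus strand of chromosome 9 (87702800 to 87731260).

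Tbx18 and Tbx1 set all kidney SP libraries apart from the rest, Tbx1 narrowly, at 1.46 CPM or more against at most 1.44. Several genes, Tbx4 and Tbx5 among them, set libraries 1 and 2 of E11.5 SP apart from libraries 3 and 4. Upstream sequences are shown for 2 of these genes, Tbx18 and Tbx4. They are the 250 bases before the transcription start in RefSeq (GRCm38.p6), 5′ to 3′ on the strand of the gene, at chr9:87731261-87731510 on the minus strand and chr11:85896515-85896764 on the plus strand, the latter start lying inside the annotated Tbx4 gene. RefSeq windows were also at hand for Tbx1 and Tbx20 and are not printed, and none was at hand for Tbx2, Tbx3, Tbx5 and Tbx15. Capitals mark TATAAA, or its complement TTTATA, which 12.4% of all 32851 windows of this length hold on either strand.
Tbx18: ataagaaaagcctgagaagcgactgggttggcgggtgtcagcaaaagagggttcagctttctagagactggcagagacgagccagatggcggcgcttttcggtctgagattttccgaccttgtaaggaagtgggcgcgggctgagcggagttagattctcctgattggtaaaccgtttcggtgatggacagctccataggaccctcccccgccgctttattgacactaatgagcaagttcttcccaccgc
Tbx4: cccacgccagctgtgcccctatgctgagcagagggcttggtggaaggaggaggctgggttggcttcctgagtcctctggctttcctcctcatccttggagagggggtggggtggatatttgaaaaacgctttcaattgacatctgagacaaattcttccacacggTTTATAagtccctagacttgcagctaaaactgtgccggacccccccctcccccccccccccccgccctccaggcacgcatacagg
The Tbx18 window held 15 CG dinucleotides and the Tbx4 window 6, against a median of 6 over all windows, and the match to TATAAA was in the Tbx4 window alone of the pair. Neither held AGGTGTGA, the core of the sequence that T-box proteins bind on either strand, which 1.12% of all windows hold. The shorter run AGGTGT was in a window of Tbx1, not printed here, and in 11.8% of all windows.

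Tbx2 separated the 3 kidney types at both stages. In UB it stood at 285, 267, 272 and 261 CPM in the E11.5 libraries 1 to 4 and at 224, 404, 421 and 389 in the E12.5 libraries. In SP it stood at 179.9, 174, 112 and 135 at E11.5 and at 195, 157, 205 and 183 at E12.5. In NP it was 13.8, 4.87, 6.31 and 3.83 at E11.5 and 16.5, 3.75, 4.30 and 3.16 at E12.5. No library of a type overlapped with another type of the same stage, and the highest NP value at each stage was that of library 1, named above for its ureteric bud markers. The difference of SP over NP at E11.5 was 4.32 ± 0.32 (SE) on the log2 scale (limma, adjusted p = 6.1e-06), or 20.9 times in the means. UB exceeded SP by 0.87 ± 0.14 (adjusted p = 4.3e-04) and NP by 5.19 ± 0.26 (adjusted p = 4.5e-09) at E11.5. At E12.5 the same differences were 4.82, 0.92 and 5.74, all called. Of the 8 ureteric bud markers 7 were called higher in SP than in NP at E11.5 (median 1.84), where 22.2% of all genes were called higher. At E12.5, where 34.8% of all genes were called and 17.8% as higher, 2 of the 7 tested were higher and 3 lower (median -0.47), although their sums were 81.5 to 117 in SP and 22.004 to 84.9 in NP. Their part in the levels of Tbx2 and Tbx3 in SP was not tested.

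Tbx3, the partner of Tbx2 in many embryonic tissues, followed the same order with a wider step between UB and SP. In E11.5 UB it was 351, 304, 336 and 342 CPM and in E12.5 UB 218, 333, 385 and 345. In E11.5 SP it was 134, 133, 60.1 and 46.3, libraries 1 and 2 lying well above libraries 3 and 4; the summed ureteric bud markers of these libraries were 302, 258, 242 and 128. In E12.5 SP it was 42.4, 25.3, 46.3 and 35.0. The NP libraries held 11.7, 2.18, 3.50 and 2.63 at E11.5 and 8.56, 1.74, 1.25 and 1.23 at E12.5. UB exceeded SP by 1.97 ± 0.31 at E11.5 (limma, adjusted p = 3.5e-04) and by 3.07 ± 0.22 at E12.5 (adjusted p = 5.7e-06). SP exceeded NP by 4.07 ± 0.48 at E11.5 (adjusted p = 1.3e-04), or by 3.41 (adjusted p = 6.1e-04) without libraries 1 and 2 of E11.5 SP and 4.73 (5.4e-05) without libraries 3 and 4.

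The order was kept in the ES-derived cells, with iNP raised. Tbx2 was 295, 384, 378 and 399 CPM in iUB, 146, 171, 167 and 155 in iSP and 69.7, 54.4, 77.3 and 59.5 in iNP. Tbx3 was 234, 372, 347 and 312 in iUB, 149, 187, 192 and 161 in iSP and 29.8, 15.97, 22.4 and 21.2 in iNP. Within each gene the 3 ES-derived types did not overlap. Every iNP library lay above every NP library of both stages for both genes.

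**Figure D1:**
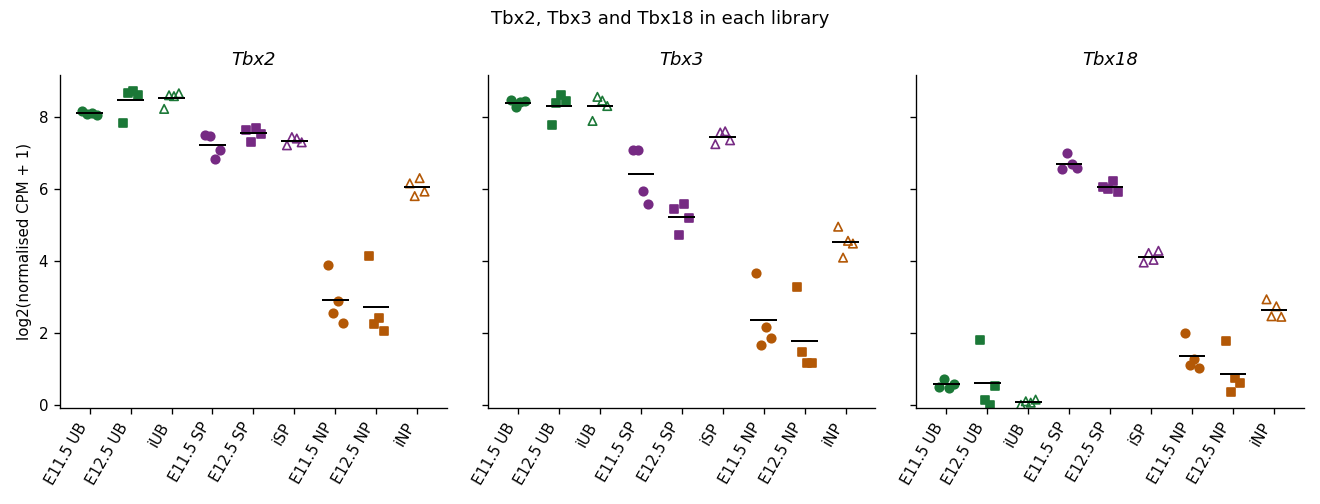
Level of Tbx2, Tbx3 and Tbx18 in each of the 36 libraries as log2(normalised CPM + 1), by group; symbols are libraries 1 to 4 from left to right, open symbols are ES-derived cells and lines are the means of the log2 values. Tbx2 and Tbx3 step down from UB to SP to NP, with iNP well above both NP groups, and Tbx18 is highest in kidney SP, then iSP, then iNP.

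Tbx18 marked the kidney SP. It stood at 92.1, 127, 102 and 93.6 CPM in E11.5 SP and at 64.4, 63.1, 73.1 and 58.7 in E12.5 SP. In NP it was 3.0005, 1.14, 1.41 and 1.03 at E11.5 and 2.40, 0.270, 0.679 and 0.515 at E12.5. In E11.5 UB it lay between 0.378 and 0.643, and in E12.5 UB it was 2.50, 0.0947, 0 and 0.435, the first of these in the library that also held stromal genes. E11.5 SP were 62.97 times E11.5 NP in the means, a difference of 5.35 ± 0.21 on the log2 scale (limma, adjusted p = 2.0e-07), and the E12.5 difference was 5.17 ± 0.28. UB were lower than SP by 6.13 at E11.5 and 5.42 at E12.5.

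In the ES-derived cells Tbx18 kept its place in SP at a lower level. It was 14.4, 17.6, 15.3 and 18.3 CPM in iSP, below every kidney SP library, and 6.61, 4.49, 5.65 and 4.44 in iNP, above every kidney NP library. In iUB it ranged from 0 to 0.106, at most 3 reads a library. The transcript D030062O11Rik overlaps 20.6% of the exonic bases of Tbx18 on the other strand, so reads could be shared if strand was not used in counting. It was low beside Tbx18, with 1.57 to 3.45 CPM in kidney SP and 0.665 to 1.15 in iSP.

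**Figure D2:**
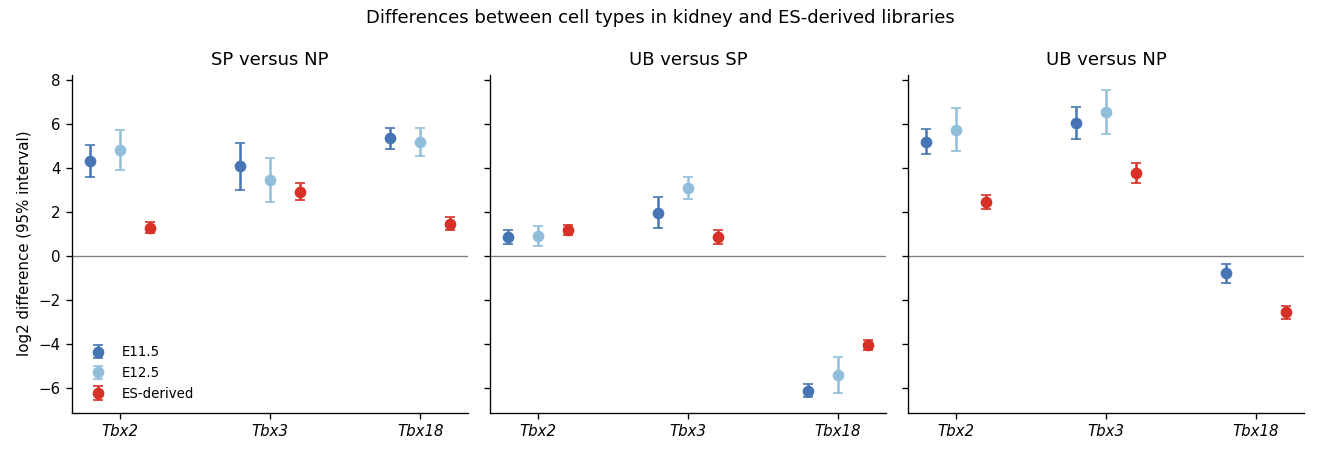
Log2 difference between cell types, with 95% intervals from limma, for Tbx2, Tbx3 and Tbx18 in E11.5, E12.5 and ES-derived cells (4 libraries a group); Tbx18 was not tested between UB and NP at E12.5. SP exceeded NP by 5.35 for Tbx18 at E11.5 and by 1.47 in ES-derived cells, and for Tbx2 by 4.32 and 1.29.

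Tbx1, a gene of the pharyngeal region, was low and also highest in kidney SP. It was 3.10, 5.15, 2.98 and 1.46 CPM in E11.5 SP and 2.004, 1.49, 2.58 and 2.62 in E12.5 SP. Of the other groups only library 1 of E11.5 NP, at 1.44, passed 1 CPM. In iSP it was 0.532, 0.681, 0.739 and 0.338, below each kidney SP library and overlapping iNP (0.351 to 0.984). The likeness of Tbx1 to Tbx18 over the 36 libraries was r = 0.88, although the level of Tbx1 was far lower.

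Tbx4 was high in libraries 1 and 2 of E11.5 SP alone. It stood there at 20.7 and 25.9 CPM, against 0.278 and 0 in libraries 3 and 4 of the same group and at most 0.217 in E12.5 SP. These 2 libraries were also those with Tbx5, at 2.17 and 3.65 against 0 and 0. They differed from libraries 3 and 4 in other genes, chosen here after their values were seen. Pitx1, a hindlimb factor, was 25.99 and 13.5 against 2.78 and 1.01. Hand2, a limb and heart factor, was 47.9 and 32.0 against 5.72 and 2.50, and Isl1, a gene of hindlimb and heart progenitors, was 94.7 and 74.1 against 19.3 and 4.73. Foxf1, a gene of splanchnic mesoderm, was 20.2 and 14.6 against 1.03 and 0.312. Foxd1 ran the other way, at 265 and 367 against 447 and 563, and Tbx18 did not follow either, at 92.1 and 127 against 102 and 93.6. The 16 genes of the limb, heart and pharyngeal list summed to 454 and 398 CPM in libraries 1 and 2 and to 214 and 190.2 in libraries 3 and 4, but this sum was not particular to the former, being 309 to 358 in E11.5 NP and 245 to 590 in E12.5 NP; heart muscle markers were near 0 in all 4 libraries (a sum of 0.650 to 1.77). The part that other cells played in these libraries was not tested.

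In the ES-derived cells Tbx4, Tbx5 and Tbx15 were present together in iSP and, at lower levels, in iNP. Tbx4 was 3.38, 2.26, 2.14 and 3.51 CPM in iSP, 0.459 to 0.703 in iNP and at most 0.223 in iUB. Tbx5 was 3.09, 3.58, 4.21 and 2.64 in iSP, 2.18, 0.689, 1.67 and 1.502 in iNP and at most 0.172 in iUB. All 4 E12.5 SP libraries and all 4 E11.5 UB libraries had 0 reads of Tbx5; iSP were thus at least 20.8-fold higher than E12.5 SP, counted against 3 reads in the shallowest of those libraries.

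Tbx15 was 5.60, 4.08, 4.06 and 5.10 CPM in iSP and 0.787 to 0.937 in iNP. Among kidney libraries it passed 1 CPM in library 1 of E11.5 SP (1.43, the others 0.104 to 0.267) and in library 4 of E12.5 SP (1.93, the others 0.0202 to 0.0956). The iSP range lay above every kidney library for Tbx15, and for Tbx4 above every kidney library other than libraries 1 and 2 of E11.5 SP. Skeletal muscle markers, summed over 4 genes, were 3.37 to 7.49 in iSP and 16.6 to 20.0 in iNP against 0.0956 to 1.502 in kidney SP, and limb mesenchyme markers, summed over 3 genes, were 566 to 737 in iSP against 52.0 to 318 in kidney SP, most of it from Prrx1. Their part in the levels of the T-box genes was not tested.

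**Figure D3:**
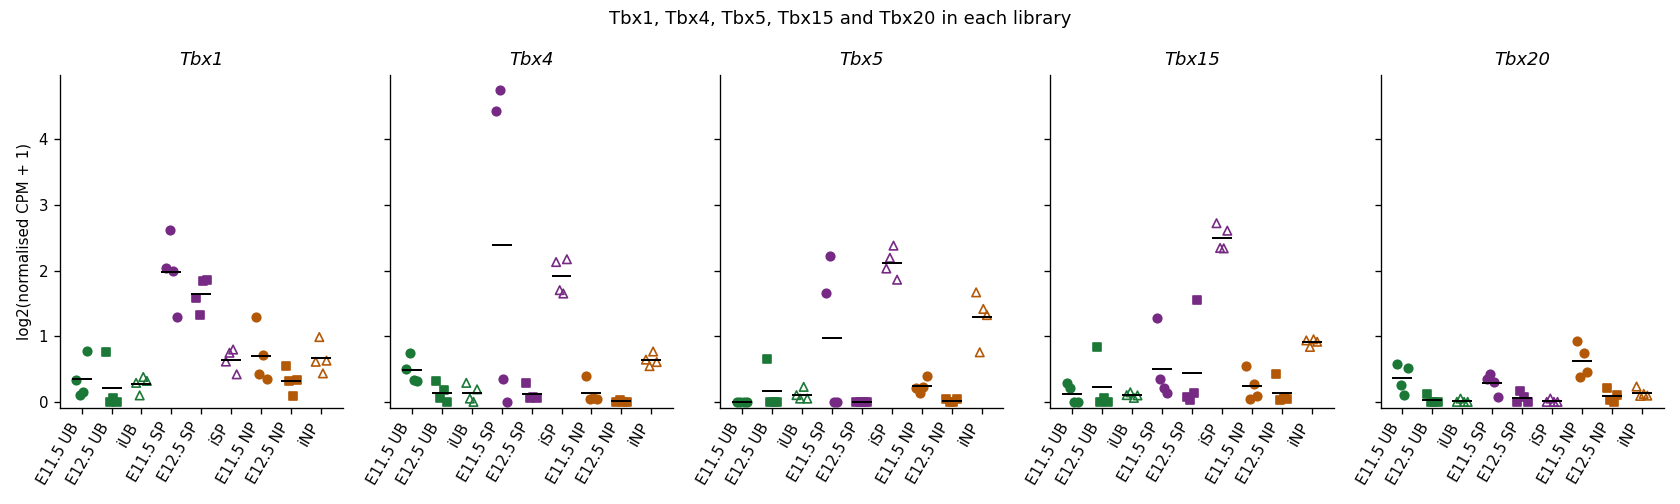
Level of Tbx1, Tbx4, Tbx5, Tbx15 and Tbx20 in each of the 36 libraries as log2(normalised CPM + 1), by group, drawn as for Tbx2; lines are means of the log2 values. Tbx5 and Tbx15 are highest in iSP, Tbx1 in kidney SP, and the Tbx4 values of E11.5 SP split into 2 high and 2 low libraries.

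Tbx20, a heart gene, stayed under 1 CPM in every library and was in no test. Its highest values were in E11.5 NP, from 0.302 to 0.896, and 12 of the 36 libraries had no read. The ranges of neighbouring groups overlapped throughout the order of its means.

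The first question was how far the ES-derived cells carried the T-box levels of their kidney counterparts. In iUB against E11.5 UB, 60.5% of all tested genes were called, and Tbx2 was the member called of the 2 tested, higher by 0.41 ± 0.10 on the log2 scale (limma, adjusted p = 4.5e-03), a difference of 1.34 times in the means; this call was lost in a fit of all 36 samples (adjusted p = 0.26). Tbx3 differed by -0.09 (95% interval -0.39 to 0.21). The 2 neural crest markers, Sox10 and Foxd3, summed to 14.5 to 19.6 in iUB and 1.21 to 1.93 in E11.5 UB, with Foxd3 under 1 CPM in both. The 5 macrophage markers summed to at most 0.429 in iUB and 44.1 to 69.7 in E11.5 UB. Their part in the difference of Tbx2 was not tested. Against E12.5 UB, where 44.4% of genes were called, neither member was: the difference was 0.05 for Tbx2 (-0.41 to 0.51) and -0.01 for Tbx3 (-0.46 to 0.44). At an unadjusted p under 0.05 the count was also 0 here.

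In iSP against E11.5 SP 67.6% of genes were called. Tbx18 fell by 2.58 on the log2 scale (limma, SE 0.12, adjusted p = 2.7e-07), a 6.31-fold difference in the means, and Tbx3 was higher by 1.02 ± 0.32 (adjusted p = 0.018). Tbx1, at 1 CPM or more in E11.5 SP alone, differed by -1.34 ± 0.24, and Tbx15, which passed the filter through iSP, by 2.01 ± 0.24, both given as values. Tbx2 differed by 0.11 (-0.22 to 0.44). The intervals of Tbx4 (-0.47, from -2.78 to 1.84) and Tbx5 (1.15, from 0.09 to 2.21, adjusted p = 0.054) were wide, the E11.5 SP libraries being split as described. The call of Tbx3 was lost without library 3 of E11.5 SP (0.86, adjusted p = 0.055). Without libraries 1 and 2 of E11.5 SP, a choice made after the data were seen, 67.4% of genes were called, Tbx3 was higher in iSP by 1.68, Tbx2 was higher by 0.37 and Tbx18 stayed lower by 2.51 in size. Without libraries 3 and 4 instead, Tbx3 was higher by 0.36 (adjusted p = 0.010), Tbx2 differed by -0.15 with no call (adjusted p = 0.12) and Tbx18 was lower by 2.65 in size, so the size of the Tbx3 difference depends on which libraries stand for E11.5 SP. Libraries 1 and 2 were the ones with Tbx4 and Tbx5, so leaving them out fixes the direction of both genes, and no test is given for them.

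Against E12.5 SP, where 62.1% of genes were called, Tbx3 was higher in iSP by 2.21 ± 0.18 (limma, adjusted p = 6.2e-06) and Tbx18 fell by 1.92 (7.8e-07). Tbx2 differed by -0.21 (-0.43 to 0.02). The other members passed the filter through the group in which they were high, and their differences, as values, were 2.12 ± 0.13 for Tbx5, 2.06 ± 0.32 for Tbx15, 1.80 ± 0.15 for Tbx4 and -1.004 for Tbx1.

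In iNP the members that passed the filter, Tbx2, Tbx3 and Tbx18 (the last through iNP when set against E12.5 NP), were higher than in kidney NP, where 64.7% of genes were called against E11.5 NP (35.5% as higher) and 44.3% against E12.5 NP (25.6% as higher). Tbx2 rose by 3.14 ± 0.30 (limma, adjusted p = 1.6e-05) over E11.5 NP, from a mean of 7.20 ± 4.51 (SD, n = 4) to 65.2 ± 10.3 CPM. Tbx3 rose by 2.17 ± 0.39 (8.8e-04), from 5.01 ± 4.51 to 22.3 ± 5.68, and Tbx18 by 1.29 ± 0.22 (5.7e-04), from 1.64 ± 0.92 to 5.30 ± 1.04. Over E12.5 NP the rises of Tbx2, Tbx3 and Tbx18 were 3.33, 2.75 and 1.78. Without library 1 of each NP group they were 3.47, 2.61 and 1.51 over E11.5 NP and 3.799, 3.25 and 2.08 over E12.5 NP. Of the nephron progenitor markers 6 of 7 were lower in iNP than in E11.5 NP and none higher, where 4107 of 14064 genes were called as lower. The summed ureteric bud markers were 86.3 to 94.0 CPM in iNP against 28.0 to 50.9 in E11.5 NP, the summed stromal markers 386 to 536 against 289.96 to 327, and the 5 endothelial markers 43.1 to 72.9 against 8.24 to 24.1, although the gates were set against EpCAM/RET and CD31. Neural crest markers (2 genes) summed to 13.9 to 19.3 in iNP and to 0.0906 to 6.78 in kidney NP, neural markers (4 genes) to 16.99 to 30.4 against 1.42 to 6.31, and skeletal muscle markers (4 genes) to 16.6 to 20.0 against 0.123 to 0.740. The part of such cells in the rise was not tested.

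The stages were compared next within each type. Between E12.5 and E11.5 SP, where 8.52% of genes were called, Tbx18 was the member called of the 4 tested and fell by 0.66 (limma, SE 0.14, adjusted p = 0.018), the ranges of the stages lying apart. This call was lost with the replicate number as a block (adjusted p = 0.051), without libraries 1 and 2 of E11.5 SP (1.15% of genes called, Tbx18 adjusted p = 0.10) and in 4 of the 8 fits that left out a library. For Tbx3 the 2 stages of SP did not overlap (means of 93.4 at E11.5 and 37.3 at E12.5), with a difference of -1.19 and no call (adjusted p = 0.068), and the difference was -0.53 without libraries 1 and 2 (adjusted p = 0.31) and -1.85 without libraries 3 and 4 (5.3e-03). Of the ureteric bud markers 7 of 8 were lower in E12.5 SP and none higher (median -1.85). Of the limb, heart and pharyngeal list 6 of 10 were lower and none higher (median -2.47). Their part in the Tbx3 values was not tested. In NP, with 6.34% of genes called, the count was 0 of the 3 tested members by limma and by edgeR, and also 0 at an unadjusted p under 0.05. In UB, with 26.5% called, neither member was called by limma or edgeR, nor at an unadjusted p under 0.05 in limma (edgeR 0.041 for Tbx2), but Tbx2 was higher at E12.5 by 0.58 (adjusted p = 4.8e-06) without library 1 of E12.5 UB. The direction in UB holds only if the titles give the right stage.

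Between kidney types, 43.1% of genes were called in E11.5 SP against NP (22.2% as higher) and the 4 members that passed the filter, Tbx1, Tbx2, Tbx3 and Tbx18, were higher in SP. At E12.5 the share was 34.8% (17.8% as higher) and the same 4 were called, Tbx1 and Tbx18 having passed the filter mainly through SP. A fit with the replicate number as a block, which pairs these samples, called 7961 genes in place of 4789 and the same 4 members. In UB against SP 53.6% of genes were called at E11.5 and 46.4% at E12.5, and at both stages Tbx2 and Tbx3 were higher and Tbx1 and Tbx18 lower in UB. In UB against NP 60.2% of genes were called at E11.5 and 32.7% at E12.5 (18.4% as higher). Tbx2 and Tbx3 were higher in UB at both stages, and Tbx18 was lower by 0.78 in size at E11.5, where it passed the filter through NP alone.

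The ES-derived types were compared in the same way. The iUB differ from iSP and iNP in cell line, protocol and gate as well as in type. These cannot be told apart in comparisons with iUB, nor in the changes of a difference that include UB. In iSP against iNP, with 30.7% of genes called (14.2% as higher), Tbx3 was higher in iSP by 2.92 ± 0.17 (limma, adjusted p = 1.9e-06), Tbx18 by 1.47 ± 0.14 (3.3e-05) and Tbx2 by 1.29 ± 0.12 (2.9e-05). Tbx15 (1.59) and Tbx4 (1.27) were in this test because iSP alone reached 1 CPM, and Tbx5 (0.83) reached it in all 4 iSP and 3 iNP libraries; their differences are given as values. In iUB against iSP, with 64.7% called, Tbx2 and Tbx3 were higher in iUB, while Tbx4, Tbx5, Tbx15 and Tbx18, which passed the filter through iSP alone, were lower there. In iUB against iNP, with 52.2% called, Tbx2 was higher by 2.47 and Tbx3 by 3.78, and Tbx18, at 1 CPM or more in iNP alone, was lower by 2.56 in size.

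The differences between types were themselves compared between ES-derived and E11.5 cells. For SP against NP, this change of difference was called in 29.3% of genes. The step narrowed by 3.88 for Tbx18 (-3.88 ± 0.27, limma, adjusted p = 2.5e-08) and by 3.03 for Tbx2 (-3.03 ± 0.36, 8.4e-06), while that of Tbx3 changed by -1.15 without a call (adjusted p = 0.13). The changes of Tbx1 (-1.32) and Tbx15 (1.34) are values only, since each passed the filter mainly through the SP group in which it was high.

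For UB against NP, with 47.1% of genes called (24.9% as lower), Tbx2 changed by -2.73 ± 0.34 (limma, adjusted p = 6.2e-06) and Tbx3 by -2.26 ± 0.45 (5.7e-04), and the value of Tbx18, under 1 CPM in both UB groups, was -1.79 ± 0.25. For UB against SP, with 47.4% called, Tbx3 changed by -1.11 (0.023), a call lost without library 3 of E11.5 SP (0.052). The values of Tbx18 (2.09), Tbx15 (-2.03) and Tbx1 (1.27) come from genes that passed the filter through SP groups and carry no test here. The value of Tbx18 rests on UB libraries near 0 and was -0.20 in edgeR on the recovered reads, so it depends on the scale.

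Genes known to be repressed by TBX2 and TBX3 did not move together. Of a list of 5, Cdkn1a, the cell cycle inhibitor p21, was highest in the UB groups, where Tbx2 and Tbx3 were highest: 207 to 234 CPM in E11.5 UB against 41.0 to 64.7 in E11.5 SP, and 597 to 763 in iUB against 2.60 to 5.27 in iSP. Shisa3 and Frzb, inhibitors of WNT signalling, ran the other way. Shisa3 was 3.85 to 6.23 in E11.5 UB, 355 to 973 in E11.5 SP and 0.0355 to 0.520 in iUB. In E11.5 UB against SP, where 53.6% of all genes were called, 1 of the 4 tested genes was higher and 2 lower, and the median difference was -2.06 against 0.01 over all genes. In iNP against E11.5 NP, where Tbx2 and Tbx3 rose and 64.7% of all genes were called, 3 of 5 were higher and 2 lower, with a median of 0.59 against 0.07.

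Among 12 genes of the ureteric mesenchyme and smooth muscle, where Tbx18, Tbx2 and Tbx3 act, 7 of the 10 tested were higher in E11.5 SP than in NP and none lower, against 43.1% of all genes called in either direction and 22.2% as higher (median 1.47 against -0.03). In iSP against E11.5 SP, where 67.6% of all genes were called (4468 of 13916 as lower), 8 of 9 fell and 1 was higher (median -1.47 against 0.04). Tagln, a smooth muscle gene, fell by 5.62 (limma, adjusted p = 3.5e-07), and Gli1, a target and effector of hedgehog signalling, by 5.48 (6.2e-06). Gli1 and Tagln fell too against E12.5 SP, by 6.08 and 4.88, and there Ptch1, the hedgehog receptor, fell by 2.15 (2.6e-07).

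The limb, heart and pharyngeal list held 16 genes. In iSP against E12.5 SP, with 62.1% of all genes called, 7 of the 11 tested were higher and 2 lower, with a median of 1.23 against 0.04 over all genes. Sall4, a gene of limb and early embryonic cells, was higher by 2.99 (limma, adjusted p = 1.6e-07) and Pitx1 by 2.72 (4.9e-06). Against E11.5 SP, with 67.6% called, 3 of 12 were higher and 6 lower, with Isl1 lower by 3.86 in size (1.4e-03) and Hand2 by 2.67 (9.2e-03), genes high in libraries 1 and 2 of E11.5 SP. In iNP against E11.5 NP, with 64.7% called, 8 of 11 were higher and 2 lower, with a median of 1.41 against 0.07. Fgf10, a limb bud growth factor, fell by 2.59 (limma, adjusted p = 2.4e-06), and Gata5, a heart and endoderm factor, was higher by 2.32 (1.9e-06).

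**Figure D4:**
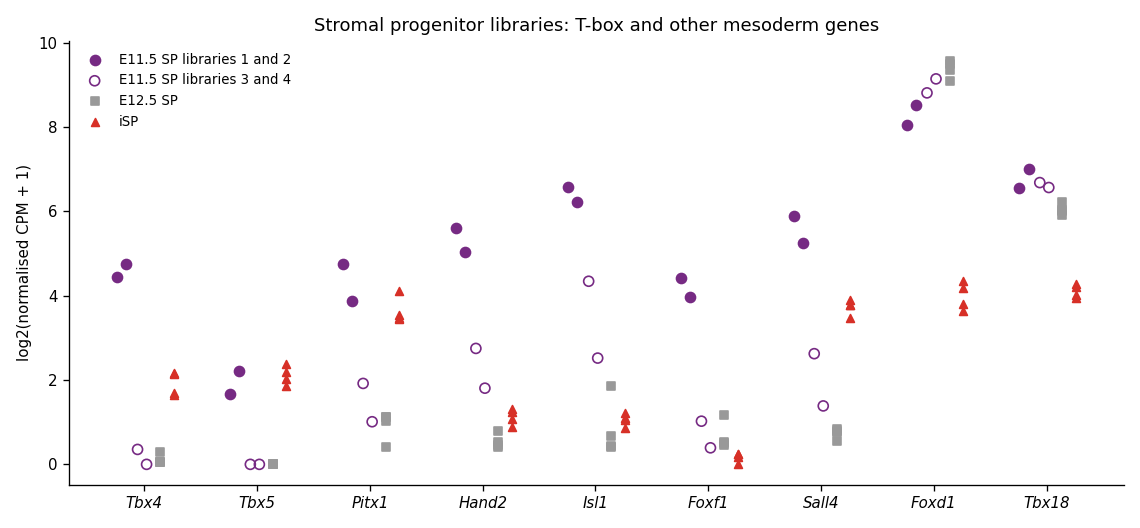
Level, in kidney SP and iSP libraries, of Tbx4, Tbx5, Tbx18, Foxd1 and 5 genes of limb and other mesoderm, as log2(normalised CPM + 1), with each point a library. Libraries 1 and 2 of E11.5 SP lie above libraries 3 and 4 for Tbx4, Tbx5, Pitx1, Hand2, Isl1, Foxf1 and Sall4 and below them for Foxd1, and iSP are low in Foxd1 (11.4 to 19.2) and Foxf1 (at most 0.193).

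Of the corepressors and adaptors that T-box proteins bind, 8 genes of the Tle and Ripply families were listed. In iNP 6 of the 7 tested were lower and 1 higher than in E11.5 NP (median -0.68 against 0.07). There 64.7% of all genes were called, 4107 of 14064 as lower. Against E12.5 NP 4 of 7 were lower and 1 higher, with 2636 of 14067 genes called as lower. In iSP 2 of 6 were lower and 1 higher than in E11.5 SP, with 67.6% of all genes called, and Tle4 fell by 2.51 (limma, adjusted p = 6.5e-05). Of 8 further T-box genes in the table few were tested. Mga, which carries a T-box and is broadly expressed, stood at 61.5 to 245 CPM over the 36 libraries, and Tbx10 passed 1 CPM in the kidney NP libraries (1.38 to 2.48) and nowhere else.

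The genes most like each member over the 36 libraries were found by Pearson's r of log2 values among 16001 genes, and all points share libraries and groups. For Tbx3 they were Prdm16 (0.96), Tbx2 (0.95) and Tox (0.94), and for Tbx2 they were Tbx3, Anxa5 (0.93) and Syt13 (0.93). Tbx18 was followed by Gabra3 (0.99), Piezo2 (0.98) and Ebf1 (0.98). Tbx1 was nearest to Ptx3 (0.90), Ntng1 (0.90) and Col5a3 (0.89). Tbx4 was nearest to Mab21l1 (0.88), Pitx1 (0.86) and Gsc (0.85), Tbx5 to Ppfibp2 (0.91) and Zfhx4 (0.90), and Tbx15 to Pax1 (0.95), Rspo4 (0.92) and Igf1 (0.92). The antisense transcript Tbx3os1, which shares 1.74% of the exonic bases of Tbx3, was 16.4 to 17.8 CPM in E11.5 UB, 19.2 to 50.3 in iUB, 0.546 to 2.80 in E11.5 SP, 1.19 to 4.01 in E12.5 SP, 6.57 to 9.42 in iSP and at most 0.585 in kidney NP. It did not follow Tbx3 throughout: its mean was 35.5 in iUB and 17.1 in E11.5 UB, where Tbx3 overlapped between these groups.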

How the data were processed

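Poly(A) RNA of 36 samples was sequenced after a stranded mRNA library preparation. The authors used Cutadapt for trimming, STAR for alignment and edgeR for normalisation. How reads were counted, with which annotation and whether by strand is not given in the sources used here, and the genome is written as GRCh38 although all 22761 identifiers are mouse Ensembl genes. The deposited signal values are CPM scaled by the authors' edgeR factors. In each library 100.0% of values were whole multiples of a read within 0.01, so reads could be recovered. Columns of the authors' own comparisons (log2 fold changes, p-values and false discovery rates) were not used.

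Groups came from the sample titles. Tests used limma 3.58.1 (R 4.3.3, lmFit and eBayes with trend) on log2(value + 1), for genes at 1 CPM or more in at least 4 of the libraries compared, with Benjamini-Hochberg adjustment over all tested genes and a threshold of 0.05; the log2 scale understates differences of low genes. A value ± is a standard error unless marked SD. Changes of a difference between types used 16 libraries. Alternatives were a pseudocount of 0.1, no filter, a filter of 2 CPM, quantile and upper-quartile scaling, a fit of all 36 samples, edgeR 4.0.16 on recovered reads, the replicate block, CPM without the authors' factors and each library left out. The script was tested on simulated data. Replicate numbers from the titles paired E12.5 SP with E12.5 NP, where deviations of same-numbered samples correlated at 0.543 to 0.70, and no other comparison in all 4 pairs. Members, gene lists and tests were chosen with earlier results of these data known. Named genes are the 8 members, list genes called with a log2 difference over 2 (at most 4 a list and comparison), the 3 genes most like each member, and overlapping genes; some genes that this rule names are not reported here. Positions are from GENCODE vM21 and sequences from RefSeq (GRCm38.p6). Figures were drawn with Python 3.11.15 and matplotlib 3.10.9.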

Additional observations from a re-analysis of the deposited data

Results flagged for a closer look

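In groups of 4 libraries a sample was listed when its gap to the nearest other, over the range of the group, passed Dixon's 95% limit. For normally spread values chance gives this in about 1 of 20 groups. That rate does not hold for values near 0, and a group in which a single library had any read always passes. Of 70 gene and group pairs 16 were listed, a count that cannot be set against the rate. In 5 of them the sample was library 1 of E12.5 UB, which also held stromal, nephron progenitor and other markers: Tbx1 stood at 0.696 CPM there, Tbx5 at 0.573, Tbx15 at 0.778 and Tbx20 at 0.0819, above the rest of the group, and Tbx2 at 224, below it. The Tbx20 value was 2 reads, under the limit of detection. Library 1 of E12.5 NP, with the highest ureteric bud markers of its group, was far above the rest in Tbx2 (16.5), Tbx3 (8.56) and Tbx15 (0.339), and library 1 of E11.5 NP in Tbx3 (11.7) and Tbx4 (0.312). Tbx15 was 1.43 in library 1 of E11.5 SP and 1.93 in library 4 of E12.5 SP, and Tbx4 was 0.217 in library 1 of E12.5 SP. In the other 3 pairs a single library had any read at all: Tbx4 in library 2 of E12.5 NP (0.0245), and Tbx20 in library 2 of iSP (0.0358) and library 2 of iUB (0.0355). The part of other cells in these values was not tested.

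The change of a difference between types from E11.5 to ES-derived cells passed the threshold in several T-box genes (limma, log2 scale), beside 29.3% of all genes for SP against NP, 47.4% for UB against SP and 47.1% for UB against NP. For SP against NP it was -3.88 for Tbx18, -3.03 for Tbx2, -1.32 for Tbx1 and 1.34 for Tbx15, the last lost in edgeR on the recovered reads (adjusted p = 0.45). For UB against SP it was 2.09 for Tbx18, -2.03 for Tbx15, 1.27 for Tbx1 and -1.11 for Tbx3; in edgeR the value of Tbx18 turned to -0.20 and the call of Tbx1 was lost (adjusted p = 0.079), and that of Tbx3 was lost without library 3 of E11.5 SP (0.052). For UB against NP it was -2.73 for Tbx2, -2.26 for Tbx3 and -1.79 for Tbx18. Tbx1 and Tbx15, and Tbx18 where UB enters, passed the filter mainly through the group in which they were high, so their calls support nothing beyond the values. These tests share samples with each other.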

How the results depend on the processing

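Of 1488 values of single T-box genes under an alternative, 1415 kept direction and call, 18 lost the call, 23 gained it and 32 turned; the cause was not tested. The direction of uncalled values turned for Tbx3 in iUB with quantile scaling (0.0494 against E11.5 UB and 0.0472 against E12.5 UB), for Tbx4 in iSP against E11.5 SP (0.43 with a pseudocount of 0.1, 1.74 without libraries 1 and 2 of E11.5 SP), for Tbx2 there (-0.15 without libraries 3 and 4), for Tbx1 between SP stages (0.0051 without libraries 1 and 2) and for Tbx3 between UB stages (0.0009, quantile). Among changes of a difference, SP against NP turned for Tbx5 (-1.83 in edgeR, -0.87 without libraries 3 and 4) and Tbx4 (1.23 without 1 and 2), and UB against SP for Tbx4 (-1.83 with the small pseudocount, -0.11 in edgeR, -2.08 without 1 and 2), Tbx5 (2.97 in edgeR) and Tbx18 (-0.20 in edgeR). Leaving out single libraries gave ranges that cross 0 for Tbx2 between NP stages (-0.66 to 0.14), in iSP against E11.5 SP (-0.0194 to 0.21) and in iUB against E12.5 UB (-0.16 to 0.15), for Tbx3 between UB stages (-0.19 to 0.0869) and in iUB against E11.5 UB (-0.18 to 0.0436) and E12.5 UB (-0.18 to 0.13), for Tbx4 in iSP against E11.5 SP (-1.26 to 0.32) and in the change of UB against SP (-0.66 to 0.92), and for Tbx5 in that of SP against NP (-0.23 to 0.51).

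T-box genes called moved with no filter to 4 (iUB against E11.5 UB), 7 and 6 (iNP against E11.5 and E12.5 NP), 5 (UB against NP, E11.5), 8 (iUB against iNP) and 6 (change, UB against NP). A fit of all 36 samples gave 0, 5, 5 and 5 for iUB against E11.5 UB, both iNP comparisons and iUB against iNP, 3 between SP stages, and 3141 and 1572 genes called between SP and NP stages. edgeR gave 2 for the change in UB against SP. Without libraries 1 and 2 of E11.5 SP 152 genes and 0 T-box genes were called between SP stages, and 2 T-box genes without 3 and 4; UB against SP at E11.5 gave 2 either way, the filter leaving Tbx1 and Tbx18 untested. Leaving out a library gave 392 to 2889 genes called and 0 to 2 T-box genes between SP stages, 147 to 2249 genes between NP stages, 2332 to 5982 genes and 0 to 1 T-box genes between UB stages, 2924 to 4976 genes in UB against NP at E12.5, and 2 to 4, 2 to 4 and 2 to 6 T-box genes in iSP against E11.5 SP, UB against SP at E11.5 and iUB against iSP.

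A replicate block gave 7961 genes called in E12.5 SP against NP, 2365 between UB stages and 0 T-box genes between SP stages. For other types the sources do not say whether same-numbered samples came from the same pool, which is possible for NP and SP; outside E12.5 SP and NP they correlated at over 0.1 in at most 3 of 4 pairs, E11.5 SP against NP being among these. Depth limits Tbx5, with 15 libraries at 0 reads, and Tbx20, with 12.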
